A study of Mus musculus with 8 samples.

Results

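The 10 genes described here make, break down or bind hyaluronan, the long unbranched sugar polymer of the extracellular matrix. The rule that picks them is a list of symbols: Has1, Has2, Has3, Hyal1, Hyal2, Cemip, Cd44, Vcan, Hmmr and Tnfaip6. All 10 symbols were found among the 22274 genes of the deposited table, and all 10 passed the filter on low counts. RNA sequencing counts were available for 8 libraries of RFB, a mouse kidney line that the labels call fibroblasts. In 4 libraries the cells had received TGF-β together with chaetocin, a fungal compound used to inhibit SUV39 histone methyltransferases, and in 4 they had received TGF-β alone. Both groups thus carried TGF-β, and no sample without it was analysed here, so no value below is an effect of the cytokine. RFB is a single line. Neither dose nor duration is stated in what was available here, and the design text of the series names SUV39H1 knockdown derivatives that the treatment labels of these libraries do not mention. Separate cultures are not stated either, and the p-values therefore measure only the spread between these libraries, which may be technical.

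Hyaluronan is made at the plasma membrane by the synthases HAS1, HAS2 and HAS3, which join UDP-glucuronic acid and UDP-N-acetylglucosamine and push the growing chain out of the cell. It is cut by the hyaluronidases HYAL2, at the cell surface, and HYAL1, in lysosomes, and by the CEMIP protein in fibroblasts. CD44 is its main surface receptor, versican (Vcan) a large proteoglycan that binds it, TSG-6 (Tnfaip6) the enzyme that loads protein chains onto it, and RHAMM (Hmmr) a binding protein that is also found on the mitotic spindle. In kidney the polymer belongs mainly to the medulla, and cortical hyaluronan is known to increase in injury and fibrosis.

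Total counts were 14421225 to 22591935 in the libraries with chaetocin and 20135312 to 23664084 with TGF-β alone. Chaetocin replicate 1 was the deepest of its group, and the other 3 held at most 15084876 counts. A count of 3 corresponded to 0.128 to 0.200 CPM with chaetocin and 0.132 to 0.155 CPM with TGF-β alone, where CPM is the count scaled by TMM-adjusted library size. Markers of several cell types were present. The 12 fibroblast markers summed to 2043 to 2374 CPM with chaetocin and 2693 to 2796 CPM without, and of the 11 tested 2 rose and 5 fell. Over all tested genes 42.0% rose and 38.8% fell. Acta2, the largest of them, rose to 1598 ± 86.9 CPM with chaetocin, against 1248 ± 16.8 CPM without (SD, n = 4 each). Col1a1 fell to 58.1 ± 9.17 CPM with chaetocin, against 232.9 ± 10.6 CPM without, and Vim to 442 ± 50.5 CPM, against 1163 ± 30.2 CPM (SD, n = 4 each). Dcn and Lum had 160 and 19 counts over the chaetocin libraries and only 11 and 1 with TGF-β alone. The 10 tubule epithelium markers summed to 7084 to 7356 CPM with chaetocin and 4490 to 4618 CPM without, and of the 8 tested 4 rose and 3 fell. Krt8 and Krt18 made up most of that sum, at 3615 and 1783 CPM with chaetocin and 1582 and 812 CPM without, while Cldn4 fell to 810.2 CPM with chaetocin, against 1156 CPM without. Epcam and Cdh1 were high and changed little. Epcam stood at 301.6 CPM with chaetocin and 285.3 CPM without, and Cdh1 at 617.6 and 650.5 CPM. The 11 macrophage markers summed to 211 to 251 CPM with chaetocin and 367 to 402 CPM without, and the 8 endothelial markers to 114 to 123 CPM with chaetocin and 62.6 to 68.9 CPM without. Ptprc, of the macrophage list, rose against that sum, at 25.1 CPM with chaetocin and 20.5 CPM without. Pecam1, of the endothelial list, stood at 20.5 CPM with chaetocin and 11.5 CPM without. No marker of these 4 lists was at 0 in all 8 libraries, but the tubule markers Slc34a1 and Aqp2 had 2 and 1 counts over the chaetocin libraries and 1 and 0 over the others. Whether the libraries held a mixture of cells, or cells that express genes of several types, was not tested. In such bulk samples fewer cells of a type and less RNA per cell cannot be told apart.

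Chaetocin was accompanied by a lower level of the main synthase, the main receptor and the large proteoglycan, and by a higher level of both hyaluronidases. Has2, Vcan, Cemip and Cd44 fell, to fitted ratios of 0.278, 0.279, 0.384 and 0.434 of their levels under TGF-β alone. Has1, Has3, Hyal1, Hyal2, Hmmr and Tnfaip6 rose, the call on Has1 being lost in 10 of 14 alternative fits. All 10 passed the threshold, as did 80.7% of all tested genes. Of the members 4 were lower, where 38.8% of all 14608 tested genes were lower, and 6 of 10 were higher, where 42.0% of all tested genes were (edgeR quasi-likelihood test, Benjamini-Hochberg adjusted p under 0.05 over all tested genes). The 4 lower genes were near the background share, and with so many genes called the counts show nothing particular to hyaluronan genes. By size, all 4 that fell did so by a fitted fold of at least 2, which 4.88% of all tested genes did. Of the 6 that rose 1, Tnfaip6, changed as much, which 19.7% of all tested genes did. The members were chosen with earlier results of these data known, so these shares are a description only. Has1 and Tnfaip6 passed the filter only through the chaetocin libraries, where they were higher. The median log2 fold change of the 10 was 0.43, beside 0.02 over all tested genes, and that median lay between opposite movements. The 2 groups of libraries did not overlap in 9 of the 10 genes, all but Has1, where 74.7% of tested genes did not overlap.

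**Figure D1:**
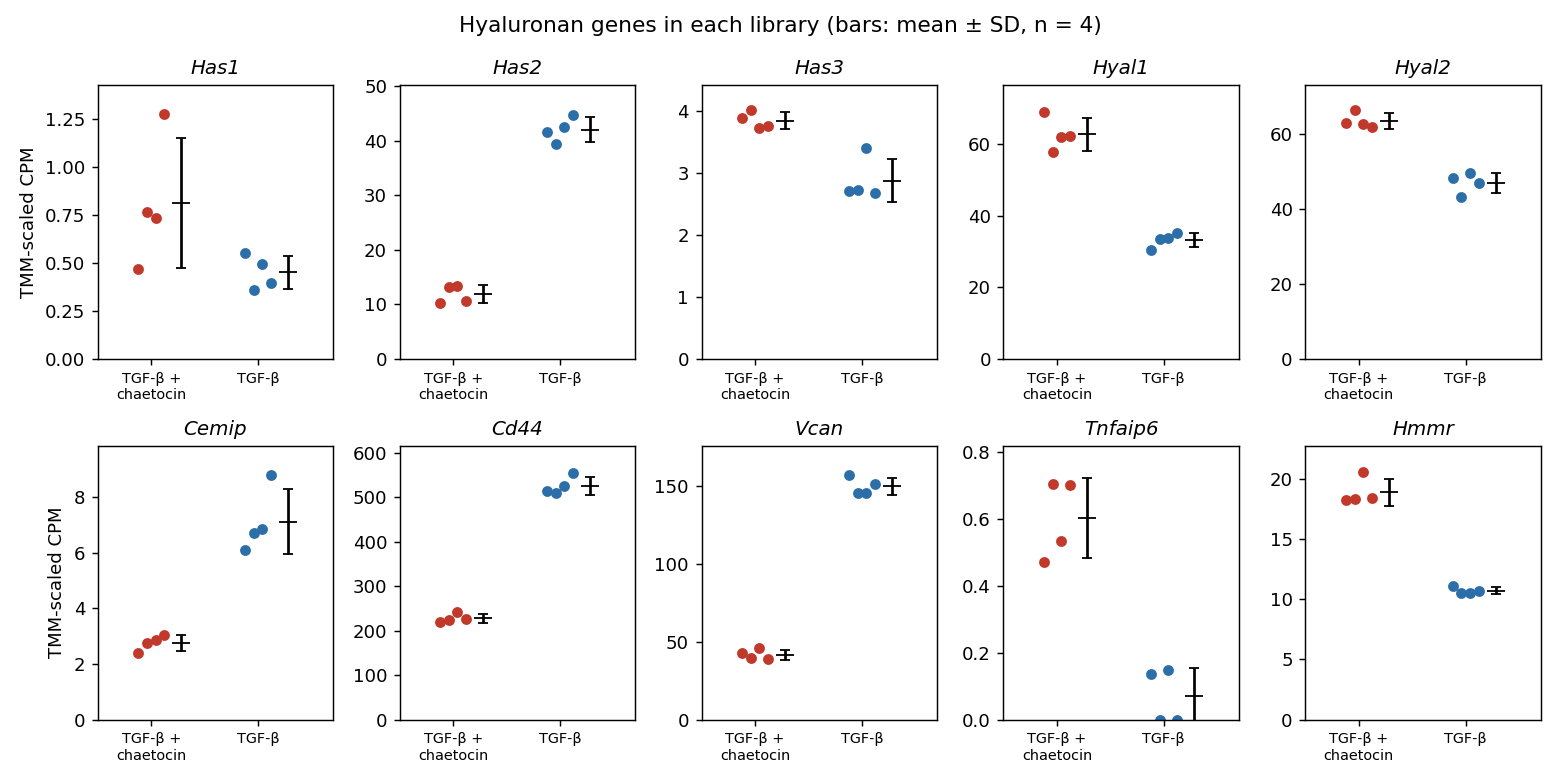
TMM-scaled CPM of the 10 hyaluronan genes in each library, with TGF-β and chaetocin in red and TGF-β alone in blue, and the mean ± SD (n = 4) beside the points. The groups overlap in the panel of Has1 and in no other, and the 2 points of Tnfaip6 at 0 belong to TGF-β alone.

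Has2 encodes the synthase that makes most hyaluronan in mesenchymal cells and is needed for heart formation in the mouse embryo. With chaetocin its 4 libraries stood at 10.2, 13.2, 13.3 and 10.7 CPM, against 41.5, 39.4, 42.5 and 44.8 CPM with TGF-β alone. The highest chaetocin library was far below the lowest without it. Has2 had a log2 fold change of -1.85 ± 0.07 (SE; edgeR adjusted p = 3.6e-19), and 0.815% of all tested genes had a lower one. It lies on chromosome 15, positions 56665627 to 56694539, minus strand (GRCm38), and 182 of its exon bases overlap the antisense gene Has2os, which was not analysed here.

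Has3 and Has1 were the minor synthase transcripts. Has3, whose enzyme makes shorter chains, had 3.89, 4.03, 3.74 and 3.76 CPM with chaetocin, against 2.71, 2.73, 3.41 and 2.68 CPM with TGF-β alone. All chaetocin libraries were above all others, but TGF-β replicate 3 stood well above its group. The log2 fold change of Has3 was 0.42 ± 0.15 (SE; edgeR adjusted p = 0.0116). On the authors' FPKM scale its groups overlapped, at 0.70 to 0.85 with chaetocin and 0.44 to 0.86 without. Has3 (chromosome 8, positions 106870242 to 106884566, plus strand) shares 352 exon bases with Chtf8 on the opposite strand. Chtf8 stood at 137 to 145 CPM with chaetocin and 161 to 168 CPM without. Whether the counting used strand was not stated, and reads of Has3 and Chtf8 in the shared bases cannot then be told apart; Chtf8 was chosen after its values were seen.

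Has1 was close to the limit of detection, with 11, 12, 11 and 20 counts with chaetocin against 12, 7, 10 and 9 with TGF-β alone. These are 0.811 ± 0.337 CPM and 0.450 ± 0.0876 CPM (SD, n = 4 each), and the groups overlapped. Its log2 fold change of 0.79 ± 0.35 (SE; edgeR adjusted p = 0.0391) was no longer called when any of chaetocin replicates 2, 3 and 4 or TGF-β replicates 2, 3 and 4 was left out, with adjusted p of 0.0511 to 0.230, nor with DESeq2 or limma-voom. Without chaetocin replicate 4 the value itself was 0.49. The filter on low counts was passed only through the chaetocin libraries, the group where Has1 was higher. Has1 lies on chromosome 17, positions 17843323 to 17855205, minus strand. No stretch of 50 bases in its annotated transcripts occurs in another gene, and the 3 synthase genes share none with each other.

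Per length, the make-up of the synthase transcripts differed between the treatments. The authors' FPKM values of Has1, Has2 and Has3 summed to 3.50 to 4.47 with chaetocin and 9.63 to 10.8 with TGF-β alone. Has2 made up 64.1% to 75.5% of that sum with chaetocin, against 89.9% to 94.0% with TGF-β alone. The share of Has3 was 16.2% to 22.0% with chaetocin and 4.35% to 7.99% without. Has2 was the largest of the 3 in every library.

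The enzymes that supply the precursors changed in both directions. Of 7 tested genes that make the UDP-sugars, 2 rose, 2 fell and 3 were not called, with a median log2 fold change of -0.05, where 42.0% of all tested genes rose and 38.8% fell. Ugdh, which oxidizes UDP-glucose to UDP-glucuronic acid, rose to 106.6 ± 3.29 CPM with chaetocin, against 46.5 ± 1.16 CPM with TGF-β alone (SD, n = 4 each; log2 fold change 1.19 ± 0.04 SE; edgeR adjusted p = 1.3e-21). Gfpt2, a form of the entry enzyme of the hexosamine pathway, rose by 0.53 on the log2 scale. On the branch to UDP-N-acetylglucosamine, Uap1, its last enzyme, and Pgm3 fell by 0.76 and 0.52 on the log2 scale.

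Hyal1 and Hyal2 are neighbours on chromosome 9, 4147 bases apart and on the same strand, and both rose. Hyal2, whose protein is anchored in the membrane and starts the cleavage of large hyaluronan, had 62.9, 66.4, 62.4 and 61.8 CPM with chaetocin, against 48.2, 43.2, 49.4 and 46.9 CPM with TGF-β alone. Its groups were well apart, although the change was small. The log2 fold change of Hyal2 was 0.43 ± 0.04 (SE; edgeR adjusted p = 4.9e-10) on counts. The authors' FPKM gave a larger difference, 53.3 to 64.7 with chaetocin and 25.6 to 29.4 with TGF-β alone, or 1.04 as the log2 ratio of their means. Ratios of FPKM were higher than ratios of TMM-scaled CPM by a median of 0.11 on the log2 scale. That median covers 11240 genes with a mean FPKM of at least 1 in both groups. The TMM factors were about 1.04 with chaetocin and 0.96 without, and their part in the shift was not tested. Hyal2 lay a further 0.49 above that shift, and 0.347% of these genes lay farther from it in either direction. The other members with FPKM at that level, Has2, Hyal1, Cd44, Vcan and Hmmr, lay 0.00 to 0.02 from it after rounding. Hyal2 (positions 107567945 to 107572779, plus strand) has 7 annotated transcripts. The size of its rise therefore depends on the unit, and its direction does not.

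**Figure D2:**
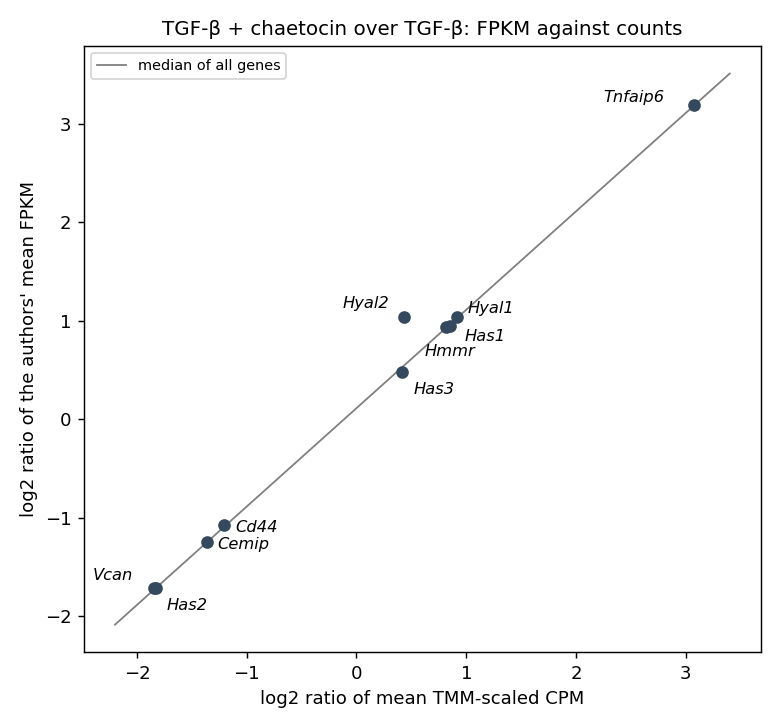
Log2 ratio of the authors' mean FPKM against the log2 ratio of mean TMM-scaled CPM, both TGF-β with chaetocin over TGF-β alone, for the 10 genes. The grey line is the count ratio plus the median shift of 0.11 over all genes compared; Hyal2 lies 0.49 above the line, and the others lie on it or close to it.

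Hyal1, the lysosomal hyaluronidase, had 68.9, 57.8, 61.8 and 62.1 CPM with chaetocin, against 30.4, 33.6, 33.6 and 35.1 CPM with TGF-β alone. The lowest chaetocin library was well above the highest without it. Hyal1 had a log2 fold change of 0.92 ± 0.05 (SE; edgeR adjusted p = 2.8e-15). Of the exon bases of Hyal1 (positions 107576927 to 107581710, plus strand), 1920 or 50.8% are also annotated to Naa80, which encodes the N-terminal acetyltransferase of actin, on the same strand. Naa80 stood at 51.8 ± 3.97 CPM with chaetocin and 23.2 ± 0.827 CPM with TGF-β alone (SD, n = 4 each), a log2 fold change of 1.15 ± 0.05. How the authors' counting split these reads is not stated, so the value of Hyal1 is uncertain. Naa80 and the hyaluronidase relatives Hyal3, Hyal5 and Spam1 were chosen after their values were seen. Hyal3, which overlaps the locus of Hyal1, was too low to be tested, with 59 counts over the chaetocin libraries and 21 with TGF-β alone.

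Cemip, which encodes the depolymerase that skin fibroblasts need to cut hyaluronan, changed in the opposite direction to the hyaluronidases. It had 2.39, 2.75, 2.87 and 3.06 CPM with chaetocin, against 6.11, 6.70, 6.87 and 8.80 CPM with TGF-β alone. The groups did not overlap, and TGF-β replicate 4 was the highest of all 8. Cemip had a log2 fold change of -1.38 ± 0.14 (SE; edgeR adjusted p = 1.5e-09). Cemip lies on chromosome 7, positions 83932857 to 84086502, minus strand. Its paralog Cemip2, a transmembrane hyaluronidase in mouse, fell slightly, by 0.16 on the log2 scale, at 60.7 ± 0.558 CPM with chaetocin and 67.7 ± 2.39 CPM without (SD, n = 4 each); it was chosen after its values were seen.

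Among the other breakdown enzymes, 2 of 6 tested rose, 3 fell and 1 was not called (median log2 fold change -0.04), beside 42.0% higher and 38.8% lower over all tested genes, and 3 of the 9 with a row were too low to test. Gusb, the lysosomal β-glucuronidase, fell by 0.23 on the log2 scale. The 2 that rose came from the second hyaluronidase gene cluster, on chromosome 6, and the activity of their proteins was not measured. Hyal6 had 65, 36, 40 and 42 counts with chaetocin and 0 in each TGF-β library, at least 73.6-fold higher, and Hyal4 had 29, 17, 27 and 20 counts and again 0, at least 37.4-fold higher. Both bounds use 3 counts over the TGF-β group as the floor, and both genes passed the filter only through the chaetocin libraries. The 2 genes are 2876 bases apart. Of their neighbours, Hyal5 had 7 counts over the chaetocin libraries and 0 without, and the sperm hyaluronidase gene Spam1 had 0 counts in all 8 libraries.

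Cd44 had the highest level per length of the members in every library under TGF-β alone. Its receptor carries hyaluronan at the cell surface and links it to the cytoskeleton. Cd44 had 219, 225, 243 and 227 CPM with chaetocin, against 515, 509, 525 and 554 CPM with TGF-β alone, so that every chaetocin library was below every other. The log2 fold change was -1.21 ± 0.03 (SE; edgeR adjusted p = 1.9e-23). Cd44 lies on chromosome 2, positions 102811141 to 102901665, minus strand, with 9 annotated transcripts, and gene counts do not show which of them changed. Macrophages also express Cd44. Of the 11 macrophage markers 7 fell beside it, and 3 rose, Ptprc, Cd68 and Itgam. Over all tested genes 38.8% fell and 42.0% rose. The summed marker levels are given above, and the part of macrophages in the fall of Cd44 was not tested.

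Of 9 genes around CD44 3 rose and 6 fell, with a median log2 fold change of -0.58. All 9 were called, where 80.7% of all tested genes were, 42.0% higher and 38.8% lower. Ezr and Msn encode ezrin and moesin, linkers between CD44 and actin. Ezr rose to 374 ± 13.0 CPM with chaetocin, against 236 ± 3.89 CPM with TGF-β alone, and Msn fell to 1548 ± 28.8 CPM, against 2420 ± 45.4 CPM (SD, n = 4 each; log2 fold changes 0.67 and -0.64). Mmp14, a membrane protease that sheds CD44, fell by 1.82 on the log2 scale. Esrp2, a splicing factor of epithelial cells that promotes the variant exons of Cd44, rose by 1.05.

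Vcan, the gene of versican, fell about as far as Has2. It had 42.5, 39.6, 45.9 and 38.8 CPM with chaetocin, against 157, 145, 145 and 151 CPM with TGF-β alone. The spread within each group was small beside the gap between them. The log2 fold change was -1.84 ± 0.04 (SE; edgeR adjusted p = 1.9e-24), and 0.828% of all tested genes had a lower one. Vcan lies on chromosome 13, positions 89655312 to 89742509, minus strand. Its closest protein-coding neighbour on one side is the link protein gene Hapln1, 43659 bases away, which was too low to be tested, with 11 counts over the chaetocin libraries and 1 with TGF-β alone; it was chosen for its position, after its values were seen.

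Of 5 tested ADAMTS genes for proteases that cut versican 4 fell and 1 rose, with a median log2 fold change of -1.60, where 38.8% of all tested genes fell and 42.0% rose. A further gene of this list, Adamts15, was too low to be tested, with 40 counts over the chaetocin libraries and 8 with TGF-β alone; it was chosen after its values were seen. Adamts1 fell by 2.10 and Adamts5 by 1.60 on the log2 scale, to 100.3 ± 5.35 and 74.9 ± 2.86 CPM with chaetocin, against 432 ± 4.04 and 226.7 ± 4.22 CPM with TGF-β alone (SD, n = 4 each). Adamts20 rose, with 61 counts over the chaetocin libraries and 3 with TGF-β alone. The ratio of pooled counts was 24.5 (95% interval 8.01 to 122, which covers counting error only). Adamts20 passed the filter only through the chaetocin libraries, so the filter itself favoured a difference.

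Promoter sequence was taken from RefSeq (GRCm38.p6). Of the 10 members 8 matched an entry, and the matches leave out Has2 and Has3. Shown here are the 250 bases before the annotated start of Cd44, Vcan and Cemip, the members with an entry that fell, and of Hmmr, 5′ to 3′ on the strand of the gene. Capitals mark matches, on either strand, to 6 motifs: the AP-1 site TGANTCA, the TEAD site GGAATG, the GC box GGGCGG, the CCAAT box CCAAT, the cell cycle homology region TTTGAA and the TATA box TATAAA. The motifs were chosen after the expression values were seen. The windows are chr2:102901666-102901915 (minus strand), chr13:89742513-89742762 (minus), chr7:84086506-84086755 (minus) and chr11:40733438-40733687 (minus).
Cd44: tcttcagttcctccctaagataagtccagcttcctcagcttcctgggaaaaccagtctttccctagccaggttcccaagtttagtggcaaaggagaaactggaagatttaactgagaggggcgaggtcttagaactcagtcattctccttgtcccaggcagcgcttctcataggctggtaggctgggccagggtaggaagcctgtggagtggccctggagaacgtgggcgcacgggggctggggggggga
Vcan: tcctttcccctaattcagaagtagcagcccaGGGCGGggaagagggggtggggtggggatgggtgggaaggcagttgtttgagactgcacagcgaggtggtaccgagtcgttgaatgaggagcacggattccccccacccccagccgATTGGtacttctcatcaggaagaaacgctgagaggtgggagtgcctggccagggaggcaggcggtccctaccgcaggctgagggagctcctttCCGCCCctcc
Cemip: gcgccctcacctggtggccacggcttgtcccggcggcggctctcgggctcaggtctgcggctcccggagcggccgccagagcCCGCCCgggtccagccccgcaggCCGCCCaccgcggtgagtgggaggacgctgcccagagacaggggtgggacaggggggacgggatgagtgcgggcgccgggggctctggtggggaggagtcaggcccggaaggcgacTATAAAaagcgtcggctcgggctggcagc
Hmmr: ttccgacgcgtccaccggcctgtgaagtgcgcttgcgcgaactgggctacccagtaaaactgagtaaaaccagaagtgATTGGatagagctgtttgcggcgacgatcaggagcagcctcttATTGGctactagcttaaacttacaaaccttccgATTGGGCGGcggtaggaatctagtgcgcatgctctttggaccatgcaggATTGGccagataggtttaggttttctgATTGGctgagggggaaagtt

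The 3 promoters of genes that fell did not look alike. The window of Cemip had 75.2% G and C and 26 CG dinucleotides, that of Vcan 62.4% and 10, and that of Cd44 56.4% and 5, where the medians over 32851 RefSeq windows were 52.4% and 6. Cemip had a TATA box 29 to 24 bases before the start, a motif that 12.4% of all windows hold, and 2 GC boxes, which 32.7% hold at least once. Vcan had 2 GC boxes and a CCAAT box, which 33.8% of windows hold, and Cd44 matched none of the 6 motifs in this window. The window of Hmmr held 5 CCAAT boxes, all in the reverse orientation, and 1 of them overlaps its GC box. As many as 5 matches were found in 0.213% of all windows. Of the 13 mitotic genes described with Hmmr below, 11 had an entry. All 11 held at least 1 CCAAT box, where 33.8% of all windows did, and 7 held at least 2, where 10.1% did. For these genes the highest of a gene's windows was taken, which can raise their counts beside single windows. The other motifs were not counted in the mitotic genes. A match is a description of the letters only.

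Hmmr rose, and so did the mitotic genes. It had 18.2, 18.3, 20.5 and 18.4 CPM with chaetocin, against 11.1, 10.5, 10.5 and 10.6 CPM with TGF-β alone, and the groups were far apart beside their spread. The log2 fold change was 0.81 ± 0.07 (SE; edgeR adjusted p = 3.5e-11). Hmmr lies on chromosome 11, positions 40701395 to 40733422, minus strand. All 13 mitotic genes rose too, with log2 fold changes of 0.33 to 1.25 and a median of 0.78, where 42.0% of all tested genes rose. Tpx2, whose protein binds RHAMM on the spindle, rose to 68.8 ± 1.91 CPM with chaetocin, against 40.0 ± 1.21 CPM with TGF-β alone, and Top2a, the topoisomerase of dividing cells, to 79.2 ± 3.85 CPM, against 44.3 ± 3.06 CPM (SD, n = 4 each). The value of Hmmr lay inside the range of these genes.

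Tnfaip6 was barely expressed. TSG-6, its product, moves heavy chains of inter-α-inhibitor onto hyaluronan and is induced by inflammatory cytokines. It had 11, 11, 8 and 11 counts with chaetocin, against 3, 0, 3 and 0 with TGF-β alone, and the lowest chaetocin library was above the highest other. The ratio of pooled counts was 8.25 (95% interval 3.48 to 23.8, counting error only), and the fitted log2 fold change 2.94 ± 0.56 (SE; edgeR adjusted p = 3.3e-05) depends on the small count added to zeros. Tnfaip6 passed the filter only through the chaetocin libraries, so the filter itself favoured a difference. It lies on chromosome 2, positions 52038009 to 52056686, plus strand.

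Genes for inter-α-inhibitor chains, pentraxin 3, link proteins and lecticans were mostly near 0 with TGF-β alone. Of 7 genes for inter-α-inhibitor chains and pentraxin 3, 3 were tested and all 3 rose; Itih2 and Itih5 had 119 and 82 counts over the chaetocin libraries, against 10 and 3 with TGF-β alone, ratios of 14.4 (95% interval 7.54 to 30.7) and 33.0 (10.9 to 163). Of 7 link protein and lectican genes 2 were tested and both rose. Acan, the gene of the cartilage proteoglycan aggrecan, had 116, 77, 78 and 88 counts with chaetocin, against 4, 1, 1 and 0 with TGF-β alone, a ratio of 72.2 (95% interval 32.8 to 198.1). Hapln4, a brain link protein gene, rose by 1.07 on the log2 scale, with 70 counts over the chaetocin libraries and 40 with TGF-β alone. The tested genes of these lists, Hapln4 included, passed the filter only through the chaetocin libraries. Genes that are low in 1 group pass the filter only when they are higher in the other. The filter itself thus favoured these rises, and the counts do not stand for the lists.

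Of the other receptors 3 rose and 3 fell, of 6 tested, with a median log2 fold change of 0.04, beside 42.0% higher and 38.8% lower over all tested genes. Stab1 and Stab2 encode related scavenger receptors, Stab1 in macrophages and sinus endothelium and Stab2 in sinus endothelium. The receptor of Stab2 takes up hyaluronan. Stab1 fell to 13.6 ± 2.30 CPM with chaetocin, against 27.4 ± 2.15 CPM with TGF-β alone (SD, n = 4 each). Stab2 rose, with 55, 29, 32 and 34 counts with chaetocin, against 1 count in each library with TGF-β alone. Stab2 passed the filter only through the chaetocin libraries, so the filter itself favoured a difference. Stab1 fell beside macrophage markers and Stab2 rose beside endothelial markers, of which 5 of 7 tested rose and 1 fell; the part of such cells in these values was not tested. Tlr2, an innate immune receptor that can respond to hyaluronan fragments, fell by 0.52 on the log2 scale. Habp4, which encodes an intracellular protein first isolated by hyaluronan binding, rose by 0.63.

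**Figure D3:**
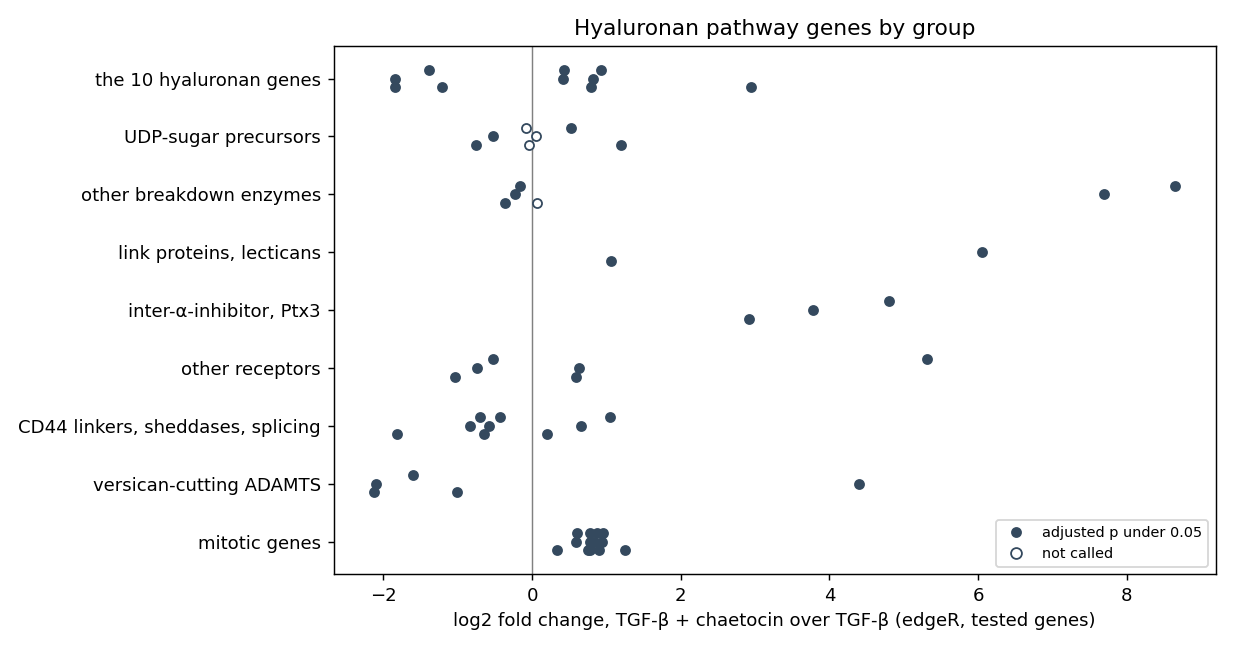
Log2 fold change (edgeR, TGF-β with chaetocin over TGF-β alone) of every tested gene of the 10 hyaluronan genes and of 8 related lists, filled where the adjusted p was under 0.05. All 13 mitotic genes lie right of 0, 4 of 5 versican-cutting ADAMTS genes lie left, and the points beyond 4 are genes with few or no counts under TGF-β alone, whose fitted values are not bounds.

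Per length, the order of the members changed between treatments. With chaetocin Cd44 and Hyal2 stood first and overlapped, at 64.6 to 70.2 and 53.3 to 64.7 FPKM, and with TGF-β alone Cd44 stood far above all others at 136.7 to 145.6 FPKM. The overlap with Cd44 rests on the FPKM of Hyal2, whose difference between treatments was 0.49 larger on the log2 scale than its counts gave beyond the shift of all genes. Vcan at 4.70 to 5.11 FPKM overlapped Hmmr at 4.86 to 5.49 FPKM with chaetocin, while with TGF-β alone Vcan had 15.2 to 16.7 FPKM and Hmmr 2.60 to 2.73 FPKM. Hyal1 was well above Has2 with chaetocin, at 21.2 to 25.04 against 2.5 to 3.27 FPKM, and next to it with TGF-β alone, at 10.2 to 12.1 against 8.96 to 10.2 FPKM, where the ranges met. Has3, Cemip and Has1 stayed below 1.2 FPKM in every library and Tnfaip6 below 0.5. Cemip, Has1 and Tnfaip6 overlapped with chaetocin, and Cemip and Has3 with TGF-β alone.

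**Figure D4:**
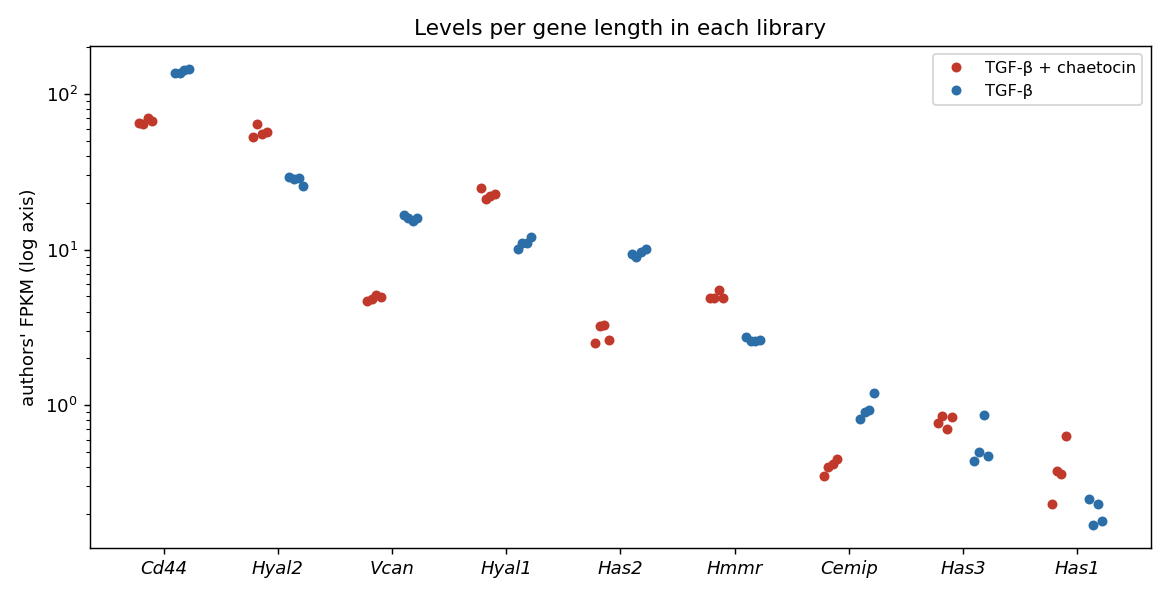
The authors' FPKM of 9 members in each library on a log axis, in the order of their mean with TGF-β alone; Tnfaip6 is left out because it is listed at 0 in 2 libraries. Cd44, Vcan, Has2 and Cemip lie lower with TGF-β and chaetocin (red), Hyal2, Hyal1 and Hmmr lie higher, and the groups overlap for Has3 and Has1.

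Scaling moved the values but no direction among the members. With total-count scaling the median log2 fold change of all genes was 0.14 in place of 0.02, and the members had -1.73 for Has2, -1.73 for Vcan, -1.27 for Cemip, -1.09 for Cd44, 0.53 for Has3, 0.55 for Hyal2, 0.90 for Has1, 0.93 for Hmmr, 1.04 for Hyal1 and 3.05 for Tnfaip6. All 10 kept their side of the threshold.

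**Figure D5:**
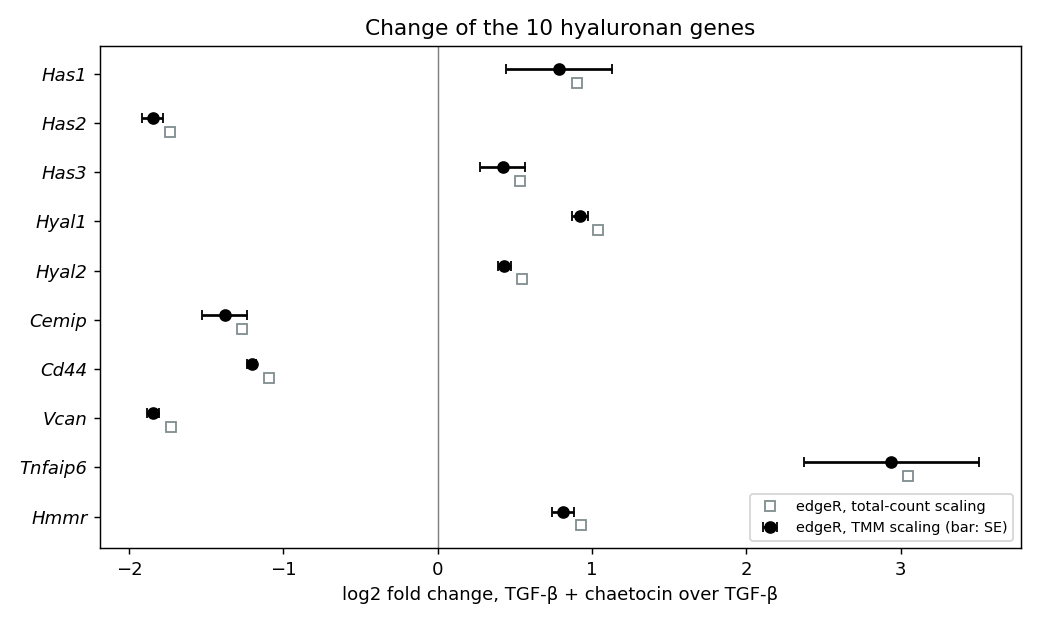
Log2 fold change of the 10 genes, TGF-β with chaetocin over TGF-β alone, by edgeR with TMM scaling (filled circles, bar: SE) and with total-count scaling (open squares). Has2, Cemip, Cd44 and Vcan lie left of 0 under both, and the other 6 lie right of 0.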

How the data were processed

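Per the labels' protocols, RNA extraction used an RNeasy kit and library construction a SMARTER kit. GRCm38 (mm10) is the build in the submitters' processing notes. No source used here names an aligner, a counter, its strand setting or an annotation. The authors deposited a raw read count and an FPKM value per gene and sample, their mean FPKM per group, a log2 ratio of these means and a p-value with FDR; the authors' log2 ratios and p-values were not used, and 0 columns of other samples were present. Counts of all 22274 genes were tested with edgeR 4.0.16 (R 4.3.3): filterByExpr, TMM scaling, quasi-likelihood F test and Benjamini-Hochberg adjustment over the 14608 genes kept, with an adjusted p under 0.05 as the call. The SE is the size of the log2 fold change divided by the square root of F. Every adjusted p comes from this fit unless another tool is named. The script was first tested on simulated counts. Every pair of libraries within a group was farther apart than sampling noise (mean chi-square per gene 2.04 to 2.61), and each library counted as 1 replicate. Coordinates, exon overlaps and shared 50-base stretches come from GENCODE M21 (GRCm38). Named genes are the 10 members and, of each list, the 2 called genes of smallest p in each direction. Others are said to be chosen after their values were seen, except the cell type markers, which stand outside this rule. Of these markers Acta2, Col1a1, Ptprc, Epcam and Pecam1 were named in the plan, and the others were chosen after their values were seen. A gene that this rule names is not reported here. The members and lists were chosen with earlier results of these data known. The alternatives tried were total-count scaling, size factors from DESeq2, no filter or a minimum of 1 CPM in 4 libraries, the DESeq2 1.42.0 Wald test, voom with limma 3.58.1, limma on log2(FPKM + 1) and log2(FPKM + 0.1) of genes above 1 FPKM in 4 samples, a replicate block, each library left out, and a fold of at least 2.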

Additional observations from a re-analysis of the deposited data

Results flagged for a closer look

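In 3 of 22 groups of 4 libraries the gap of the outermost library to its nearest neighbour took up more than 0.829 of the whole range, which chance alone gives in about 1 of 20 such groups. Hmmr stood at 20.5 CPM in chaetocin replicate 3, apart from the other 3 chaetocin libraries, and its log2 fold change without that library was 0.77. Has3 stood at 3.41 CPM in TGF-β replicate 3, and its log2 fold change without that library was 0.50. The total count was 22591935 in chaetocin replicate 1, apart from the other 3 of its group; without that library the log2 fold change of Has1 was 1.03 and that of Hmmr 0.83, and all 10 members kept their calls.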

How the results depend on the processing

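The 9 members other than Has1 kept their direction and their call under every alternative fit in which they were tested; a fold of at least 2 was required separately, and Has3, Hyal1, Hyal2 and Hmmr did not reach it. Their log2 fold changes ran from -1.91 to -1.43 for Has2, -1.89 to -1.53 for Vcan, -1.46 to -1.26 for Cemip, -1.24 to -1.06 for Cd44, 0.38 to 0.53 for Has3, 0.39 to 1.03 for Hyal2, 0.73 to 0.93 for Hmmr, 0.87 to 1.04 for Hyal1 and 2.51 to 3.48 for Tnfaip6. The upper value of Hyal2 came from FPKM. Has1 was not called without a filter (0.76, adjusted p = 0.0650), with DESeq2 (0.83, adjusted p = 0.101) or with limma-voom (0.70, adjusted p = 0.0691), and with a library left out it ran from 0.49 to 1.03; the cause was not tested. The replicate numbers do not pair the libraries: same-numbered libraries deviated together with correlations of -0.02 to 0.04. With the replicate block 6105 genes were called higher and 5643 lower, against 6129 and 5662 without it, and Has1 was not called (0.79, adjusted p = 0.0647).

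With a fold of at least 2 required, 2884 genes were higher and 713 lower. The same rule left 1 member higher, 1 precursor gene higher and 0 lower, 0 other breakdown genes lower, 1 receptor gene higher and 1 lower, 1 gene around CD44 higher and 1 lower, and 1 mitotic gene higher. With limma on FPKM, at either pseudocount, fewer members could be tested and 3 were called higher; 4 precursor genes were higher, 1 breakdown gene higher and 1 lower, and 0 link protein or lectican, 0 inter-α-inhibitor and 0 ADAMTS genes were higher. Without a filter 4 precursor genes were lower, and 4 breakdown, 5 link protein or lectican, 6 inter-α-inhibitor, 5 receptor and 2 ADAMTS genes were higher. DESeq2 called 5 link protein or lectican, 6 inter-α-inhibitor, 5 receptor and 2 ADAMTS genes higher. With at least 1 CPM in 4 libraries 1 link protein or lectican, 1 inter-α-inhibitor and 0 ADAMTS genes were higher. In several lists the number of genes tested differed between these settings, but all 7 precursor genes were tested in each; the cause was not tested. With a library left out, 2 to 4 breakdown genes and 1 to 2 ADAMTS genes were higher, the most without chaetocin replicate 2 and without TGF-β replicate 2. Depth limits Has1 and Tnfaip6, with at most 20 counts in any library.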
